A study of Rattus norvegicus with 36 samples.

Results

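The response of the striatum to an enriched environment was examined in wildtype rats, as the 6 WT_EE libraries against the 6 WT_SE libraries among the 36 RNA-seq libraries of the series. These 12 libraries were chosen by the genotype (WT) and environment (EE or SE) in their labels, with no use of the measured values. In the complete series, WT rats and rats with the BACHD transgene (TG), which carries full-length human mutant huntingtin, grew up under standard housing (SE), enriched housing (EE) or maternal separation (MS, written as ELS in the labels). Each of the 6 groups had 6 males of Sprague Dawley background, aged 2 months. WT rats were littermates of BACHD rats and carried no transgene. From weaning onwards, EE rats lived in large cages holding more animals and a changing supply of objects. SE rats lived in standard cages with fewer animals, undisturbed apart from cage cleaning and weekly weighing. Both kinds of cage held bedding and nesting material. Whole litters were assigned to an environment, so litter, cage and environment cannot be told apart in any comparison of EE with SE.

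The striatum is the input nucleus of the basal ganglia and consists mostly of GABAergic medium spiny neurons, which receive glutamatergic input from cortex and thalamus and dopaminergic input from the midbrain. Enriched housing combines physical activity, social contact and novelty, and it is known for its effects on synapses, dendritic spines and neurotrophic factors in the rodent forebrain. In a healthy animal, EE against SE therefore shows the response of the tissue without mutant huntingtin, against which the response of BACHD rats is read.

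The deposited raw counts covered 23965 genes by Ensembl identifier, and the counts of a library summed to 9895073 to 15307438 in WT_EE and 10684845 to 19284439 in WT_SE. None of the identifiers was paired with a symbol in the reference used here, so the gene lists for synapse, neurotrophin, immediate early, clock and cell type genes were not analysed, and the striatal origin was not checked against marker genes. The gene with the largest rise in TG animals lay between 52.14 and 78.18 normalised counts in the 12 WT libraries and between 433.9 and 1142 in the 18 TG libraries, with no overlap. This gene was chosen by the labelled genotype and is not identified as the transgene, which limits it as a check of the labels. A gene was called when its Benjamini-Hochberg adjusted p was at most 0.1 and its absolute log2 fold change at least 0.3, in edgeR's quasi-likelihood test across all 36 libraries with the 6 runs of 6 consecutive library numbers as blocks. Because bulk tissue was sequenced, fewer cells of a type and less RNA per cell cannot be told apart.

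No gene passed the threshold between enriched and standard housing in WT rats. Of 12657 genes tested, 0 were called in WT_EE/WT_SE (0%), and the smallest adjusted p in edgeR was 0.27. At an unadjusted p under 0.05, 607 genes were found (4.8% of those tested), where 5% of the tested genes would be 633. The directions were not equally frequent: 204 of these genes were higher (1.61%) and 403 lower (3.18%) in WT_EE. Of these, 37 genes with a log2 fold change of 0.3 or more in size were higher (0.292%) and 210 were lower (1.66%). DESeq2 with the same runs called 17 genes, 1 higher and 16 lower, whereas limma-voom with runs called 0.

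**Figure D1:**
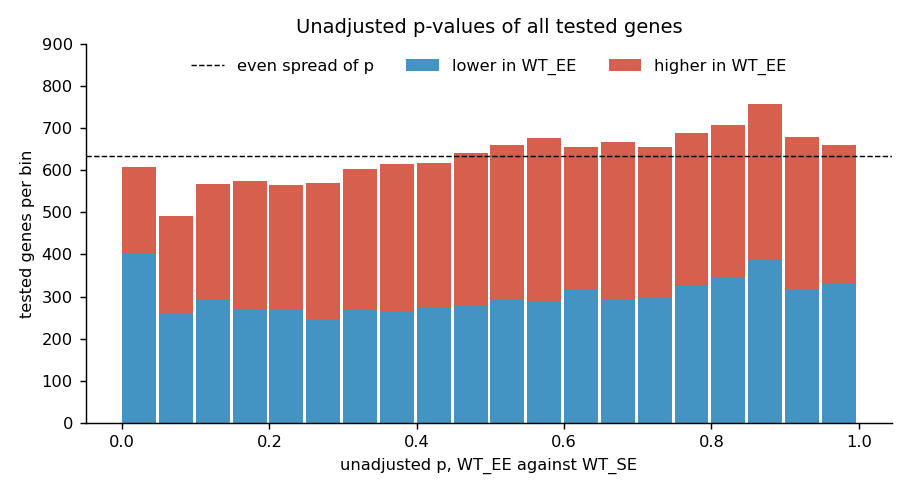
Number of tested genes (vertical axis) in each bin of the unadjusted edgeR p (horizontal axis) for WT_EE against WT_SE, coloured by direction, with a dashed line at an even spread of p. The first bin holds 403 lower and 204 higher genes and stays below the line.

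Most genes were measured well enough to bound the difference. The median absolute log2 fold change was 0.049 and the median standard error 0.081. For 9212 genes (72.8%) the 95% confidence interval of the log2 fold change lay within -0.3 and 0.3, and for 12508 genes (98.8%) within -1 and 1. Precision followed abundance. In the 3165 genes with the lowest mean counts (50 to 152.7) the median standard error was 0.125 and 33.6% of the intervals lay within 0.3, against 0.0595 and 93% in the 3164 genes with the highest mean counts (776.6 or more). The excess of lower over higher genes at an unadjusted p under 0.05 was also found at low abundance, with 175 lower and 48 higher genes in the group of lowest counts, whereas the group of highest counts held 41 lower and 58 higher genes.

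The direction of the difference was seldom shared by all 6 runs. In 136 genes (1.07%) WT_EE was higher in 6 of 6 runs, and in 171 genes (1.35%) it was lower in 6 of 6 runs. With no difference, 1 of the 64 sign patterns over 6 runs is higher throughout and 1 is lower throughout. Neither share exceeded that, so these counts are no evidence of a difference. Every WT_EE library lay above every WT_SE library in 3 genes (0.0237%), with log2 fold changes of 0.10 to 0.32, and below every WT_SE library in 6 genes (0.0474%), with absolute log2 fold changes of 0.095 to 0.72. None of these 9 genes was called.

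**Figure D2:**
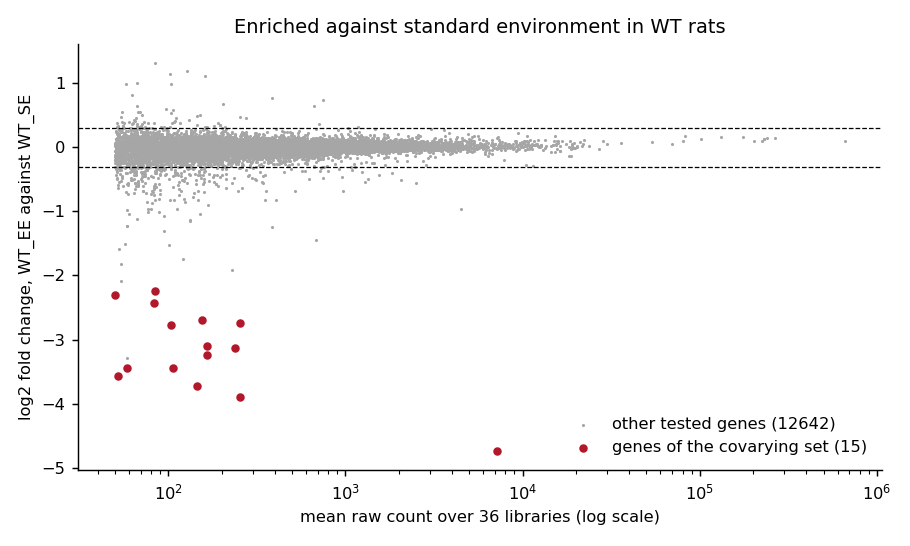
Fitted log2 fold change of WT_EE against WT_SE (vertical axis) over the mean raw count of 36 libraries (horizontal axis, log scale) for 12657 tested genes, with dashed lines at -0.3 and 0.3. The 15 covarying genes described in the text, in red, lie between -4.74 and -2.24, below the bulk of the genes.

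A total of 4 genes is given by identifier, the 2 higher and the 2 lower ones with the smallest unadjusted p among genes whose log2 fold change was 0.3 or more in size. None of them was called. ENSRNOG00000042971 had the smallest p of all genes. Its normalised counts in WT_SE were 135.9, 213.9, 155, 174.1, 128.7 and 148.8 in runs 1 to 6. In WT_EE they were 156.4, 349.5, 304.5, 272.1, 219.6 and 230.7. WT_EE was thus higher in 6 of 6 runs, although the groups overlapped, since the WT_EE library of run 1 lay below 2 WT_SE libraries. The means were 255.5 ± 68.2 in WT_EE and 159.4 ± 31 in WT_SE (SD, n = 6 each), and the log2 fold change was 0.67 (standard error 0.14, 95% interval 0.39 to 0.96, edgeR adjusted p = 0.27). TG rats gave a log2 fold change of -0.10 with EE (standard error 0.14, unadjusted p = 0.495 in edgeR). The difference between the genotypes was 0.77, with an adjusted p of 0.357 in edgeR.

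ENSRNOG00000022946 had similar values with EE in both genotypes. In WT_SE its normalised counts had a median of 162.7 (lowest 136.8, highest 175.3), and in WT_EE a median of 208.4 (150.8 to 235.8). The WT_EE library of run 6 was the lowest of its group and the only one not above its WT_SE partner. The log2 fold change was 0.34 (standard error 0.099, edgeR adjusted p = 0.527). In TG rats the medians were 191.2 in TG_SE (140.7 to 206.4) and 252 in TG_EE (203.3 to 263.7), with a log2 fold change of 0.38 (edgeR adjusted p = 0.344). The EE effects differed between the genotypes by -0.04 (95% interval -0.32 to 0.24). Averaged over both genotypes the log2 fold change was 0.36 (standard error 0.069), and the adjusted p of 0.157 in edgeR was the smallest of that comparison, which called 0 genes (0%) and held 867 genes at an unadjusted p under 0.05 (6.85%).

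**Figure D3:**
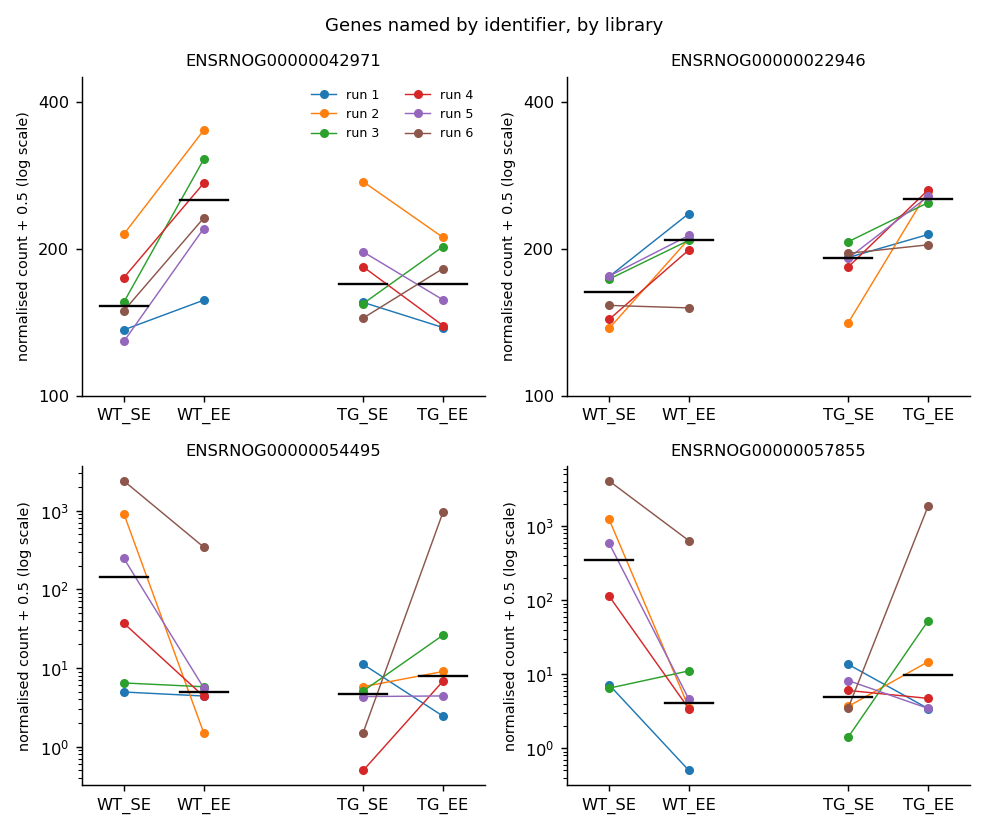
Normalised counts plus 0.5 (vertical axes, log scale) of the 4 genes given by identifier in each SE and EE library, with lines joining libraries of the same run and black bars at group medians. The upper genes were higher in WT_EE in 6 and 5 of 6 runs, and the lower genes span more than 2 orders of magnitude within WT_SE.

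The 2 lower genes were high in some animals and low in others. ENSRNOG00000054495 had normalised counts of 4.456, 908.2, 5.96, 36.51, 246.3 and 2377 in WT_SE in runs 1 to 6. In WT_EE it had 3.909, 1.01, 5.28, 3.873, 5.108 and 343.8. In all, 4 WT_SE libraries and 1 WT_EE library stood above the rest, and the groups overlapped. The log2 fold change was -3.72 (standard error 0.80, edgeR adjusted p = 0.27). ENSRNOG00000057855 was raised in the same 5 libraries. It had 6.684, 1235, 5.96, 112.8, 586.8 and 4074 normalised counts in WT_SE and 0, 3.03, 10.56, 2.905, 4.086 and 635.2 in WT_EE. Its log2 fold change was -3.89 (standard error 0.86, edgeR adjusted p = 0.27). An exact two-sided sign-flip permutation test of the within-run differences gave p = 0.0312 for ENSRNOG00000042971 and ENSRNOG00000054495, the smallest that 64 sign patterns can give, and p = 0.0625 for the other 2 genes. All 4 genes had been chosen by their p in these same libraries, so this test is no independent evidence.

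High levels in the same libraries were shared by a set of covarying genes. The 24 libraries outside WT_SE and WT_EE were searched for tested genes that were at least 8 times as high in 1 TG_EE library, replicate 6, as in each of the other 23. This gave 15 genes. The fold limit used none of the 12 libraries compared here, but the filter on mean counts over all 36 libraries did, and with the same filter over the 24 libraries alone 7 of the 15 genes remained. The search was made after the values of the 2 lower genes had been seen. The last gene inside this limit was 11.1 times and the first outside it 6.29 times as high as the highest of the other 23 libraries. Both lower genes were members, and mean raw counts of the 15 ranged from 50.22 to 7138.

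In WT rats the 15 genes went up and down together. Their summed normalised counts in WT_SE were 248.4, 57290, 275.9, 3238, 17290 and 140100 in runs 1 to 6. In WT_EE they were 203.3, 261.6, 450.6, 305, 315.7 and 24710. Thus 4 of 6 WT_SE libraries and 1 of 6 WT_EE libraries were raised, and the library of run 6 was raised in both groups. The raised libraries were not raised alike, since WT_SE replicate 6 was the highest of the 12 in 15 of 15 genes, whereas in WT_SE replicate 4 only 12 of 15 genes lay above the range of the 30 libraries with lower sums. The levels were graded. In the 30 other libraries of the series the sum had a median of 287.3 (138 to 2244), and the highest of them, TG_EE replicate 3, was 7.81 times that median and not far below the 3238 of WT_SE replicate 4. At its highest the set took 1.09% of all counts of a library, against a median of 0.00241% in WT_EE.

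**Figure D4:**
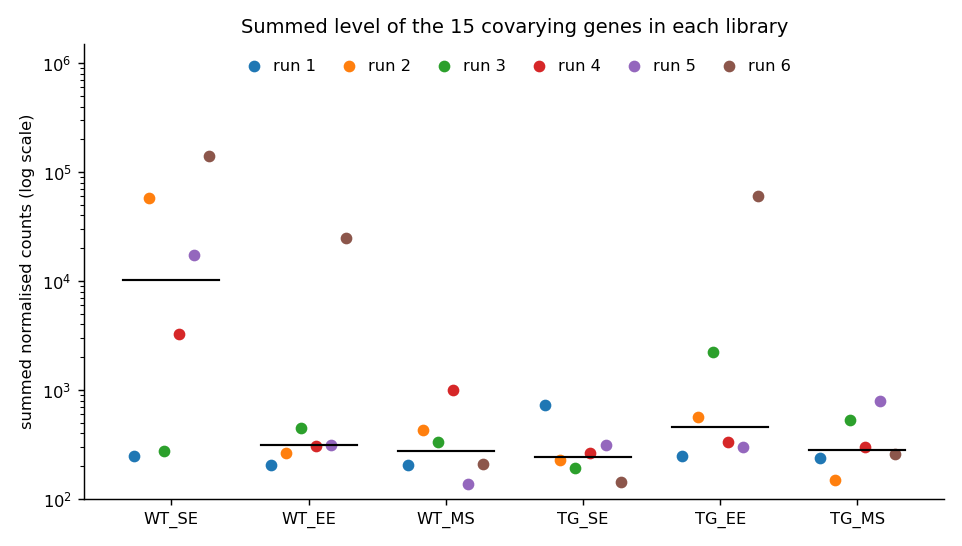
Summed normalised counts of the 15 covarying genes (vertical axis, log scale) in each library of the 6 groups, coloured by run of consecutive library numbers, with black bars at group medians. WT_SE replicates 2, 4, 5 and 6, WT_EE replicate 6 and TG_EE replicate 6 lie at 3238 or more, and the other 30 libraries at 2244 or less.

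The relative levels of the 15 genes were alike in all raised libraries. Across genes, the log2 levels in the 5 raised WT libraries correlated with those of TG_EE replicate 6 by r = 0.961 to 0.997, whereas in the other 7 WT libraries r was 0.36 to 0.762. These are descriptions over 15 genes, which are not independent replicates. In runs 2, 4, 5 and 6 all 15 genes were lower in WT_EE than in WT_SE. Over the runs, 2 genes were lower in 6 of 6, 10 in 5 of 6 and 3 in 4 of 6.

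In the fitted comparison all 15 genes were lower in WT_EE at an unadjusted p under 0.05, against 3.18% of all tested genes. Their median log2 fold change was -3.13 (-4.74 to -2.24), where the median over all tested genes was 0.0043. The count of 15 is no support for a difference, since 8 of the 15 passed the filter on mean counts only through the WT_SE or WT_EE libraries. The 7 genes that averaged 50 or more raw counts over the other 24 libraries had log2 fold changes of -4.74 to -2.70 (median -3.13). The adjusted p in edgeR was 0.27 to 0.527, so none was called. As the genes moved together, they amount to one observation on 12 animals rather than 15. A wider limit of 2 times gave 39 genes, of which 38 were lower at an unadjusted p under 0.05. These 39 include the 15 and come from the same search and the same filter over 36 libraries. Their count is no separate support for a difference.

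Most of the lower genes lay outside the fold limits of the set, but many of them followed its level. Of the 210 genes lower by at least 0.3 at an unadjusted p under 0.05, 172 were not among the 39 genes of the wider limit, where 37 genes were higher by at least 0.3. Over the 12 WT libraries, these 172 correlated with the level of the set by a median r of 0.748. Of them, 143 had r above 0.5 and 0 below -0.5, against 1197 and 1003 of the 12657 tested genes. The 172 had been chosen as lower in WT_EE in these same libraries, where the set was lower too. A positive r is thus partly built in.

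Values without the raised libraries differed from those of all libraries. When the 6 libraries with the highest sums were left out, 2 WT_SE and 5 WT_EE libraries remained, 0 genes were called, and 223 genes were higher and 155 lower at an unadjusted p under 0.05. The 15 genes then had a median log2 fold change of 0.090 (-1.66 to 1.60), a value that follows from leaving out libraries by the level of these same genes. With the log2 sum of the set as a covariate, 0 genes were called, with 156 higher and 130 lower at an unadjusted p under 0.05. Both refits were chosen after the data had been seen and condition on the level of the set, so they say nothing of the 15 genes themselves. What separated the raised from the other animals was not tested. ENSRNOG00000042971 had a log2 fold change of 0.75 without the 6 libraries.

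The response of WT rats was then set beside that of TG rats. In TG_EE/TG_SE, which shares no library with WT_EE/WT_SE, edgeR called 0 genes (0%), and 1543 genes had an unadjusted p under 0.05 (12.2%), of which 864 were higher (6.83%) and 679 lower (5.36%). Of the 607 WT genes at an unadjusted p under 0.05, 19 had an unadjusted p under 0.05 in the same direction in TG rats and 36 in the opposite direction. Outside the 39 genes of the wider limit these numbers were 19 and 26. Across all tested genes the log2 fold changes of the 2 genotypes correlated by r = -0.448, and outside the 39 genes of the wider limit by r = -0.0426. Genes are not independent replicates, and the 39 genes had been chosen by a TG_EE library. Littermates of both genotypes were caged together, so WT and TG rats of the same environment may have shared litters and cages. The 2 comparisons are therefore not fully independent, although they share no library.

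The difference between the EE effects of the genotypes was tested as an interaction. It called 8 genes (0.0632%), all with a lower EE effect in WT than in TG rats, and the smallest adjusted p in edgeR was 0.0361. At an unadjusted p under 0.05 it held 995 genes (7.86%), with a higher EE effect in WT rats in 515 (4.07%) and a lower one in 480 (3.79%). All 8 called genes belonged to the 15 covarying genes. The set was chosen by its level in TG_EE replicate 6, a library that enters this contrast. Negative differences in these genes, and this overlap, were thus partly built in. Other fits also called genes outside the 15, with 7 of 11 called genes among the 15 in DESeq2 with runs, 13 of 33 without a filter on low counts and 15 of 47 without WT_SE replicate 1. Only genes tested in the reported fit could be members. Without the filter, genes could therefore lie outside the set by construction. For ENSRNOG00000054495 the log2 fold change with EE was -3.72 in WT and 4.36 in TG rats, a difference of -8.08 (edgeR adjusted p = 0.0361). For ENSRNOG00000057855 it was -3.89 in WT and 4.94 in TG rats, a difference of -8.83 (edgeR adjusted p = 0.0361). In TG rats the rise rested on TG_EE replicate 6, the library that defined the set, where ENSRNOG00000054495 had 948.5 normalised counts against 1.95 to 25.61 in the other 5 TG_EE libraries. Without that library or without the 6 raised libraries, the interaction called 0 genes. Without the runs as blocks and with no other covariate, edgeR also called 0 genes. DESeq2 without covariates called 19 genes, and 1 surrogate variable in place of runs gave 12.

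**Figure D5:**
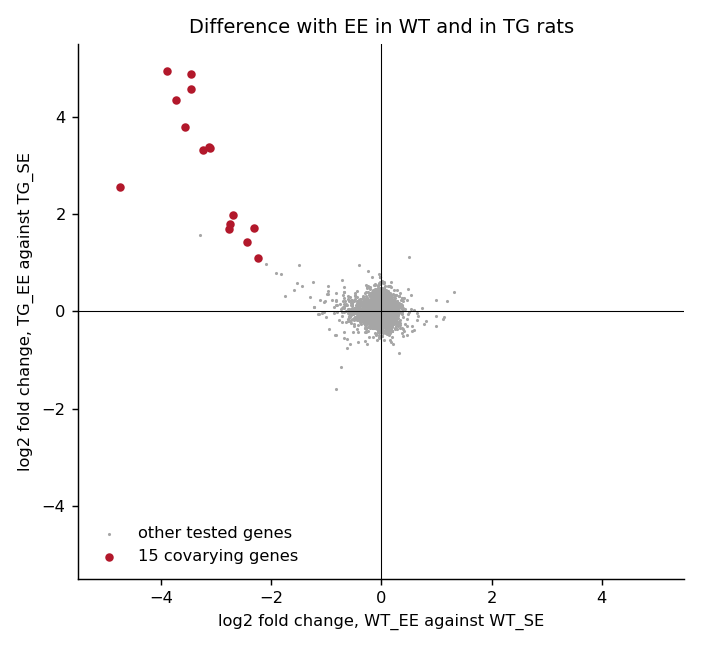
Fitted log2 fold change with EE in WT rats (horizontal axis) and in TG rats (vertical axis) for 12657 tested genes. The 15 covarying genes, in red, lie at -4.74 to -2.24 in WT and at 1.11 to 4.94 in TG rats, away from the other genes around 0. Their rise in TG rats was partly built in, as a TG_EE library chose the set.

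Maternal separation uses the same 6 WT_SE libraries as controls, so its values are given beside those of EE without a comparison of the gene lists. In WT_MS/WT_SE, 50 genes were called (0.395%), of which 49 were lower (0.387%), including 14 of the 15 covarying genes. The alternative fits were not run for this comparison, so the dependence of the 50 calls on the processing is not known. The 15 genes had a median log2 fold change of -4.92 (-7.10 to -2.72), and their sum in WT_MS had a median of 272.8 (138 to 990.7). ENSRNOG00000054495 had log2 fold changes of -5.86 with MS (edgeR adjusted p = 0.0239) and -3.72 with EE. The raised WT_SE libraries enter both values. The rule for the set also required every WT_MS library to lie at least 8 times below TG_EE replicate 6. In addition, 8 of the 15 genes passed the filter on mean counts only through WT_SE or WT_EE libraries. Lower values in WT_MS were thus partly built in, and the 14 of 15 is no separate support for a difference.

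Variation between animals was of similar size in both environments. The median SD of log2 normalised counts was 0.157 in WT_SE and 0.153 in WT_EE, and the SD was larger in WT_SE in 53.7% of the tested genes. An SD more than 2 times as large was found in 1118 genes for WT_SE and in 754 genes for WT_EE. Single libraries stood apart in few genes by Dixon's ratio, the gap to the nearest library over the range of the group, at its 95% limit. WT_EE replicate 6 lay far from the other 5 of its group in 276 genes (2.18%), and WT_SE replicate 1 did so in 269 genes (2.13%), against 42 genes in WT_SE replicate 3.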

How the data were processed

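Poly(A)-selected striatal RNA of 36 rats was sequenced by the authors as paired-end reads, aligned with STAR 2.5.2b to a rat genome from Ensembl to which the human HTT construct had been added, and deposited as raw, not normalized counts for each Ensembl gene. The program that counted reads per gene is not given in the sources used here. The table held whole numbers with total counts of 9895073 to 19284439 per library. Groups were taken from the genotype and environment in the labels.

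Testing covered the 12657 of 23965 genes whose raw count averaged 50 or more over the 36 libraries and was done in R 4.3.3 with edgeR 4.0.16 (TMM normalization, quasi-likelihood test), using 1 mean per group and 6 runs of 6 consecutive library numbers, each holding 1 library of every group. What the libraries of a run share is not given in the sources used here. Normalised counts are counts divided by the TMM-scaled library size and multiplied by the geometric mean of these sizes, and log2 values use 0.5 added. Fold changes come from the fitted model. Libraries of 1 group were compared with each other, and none of the 90 pairs agreed within sampling noise. The code was tested on simulated counts. Alternatives used surrogate variables (sva 3.50.0), DESeq2 1.42.0, limma 3.58.1, other filters and thresholds, and each library left out in turn.

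The comparison, gene lists and rule for named genes were chosen with earlier results of these data known. The rule asked for called genes, or else up to 10 genes per direction with the smallest p and a log2 fold change of 0.3 or more in size. Since 0 identifiers matched a symbol, it was limited to 2 identifiers per direction, and the gene lists were not analysed. The surrogate variable model of the study is an alternative here. No file columns were left unused.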

Additional observations from a re-analysis of the deposited data

Results flagged for a closer look

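The difference between the EE effects of WT and TG rats passed the edgeR threshold in 8 genes, all of them among the 15 covarying genes. It was -8.08 on the log2 scale for ENSRNOG00000054495 and -8.83 for ENSRNOG00000057855. The 15 genes were chosen by a TG_EE library that enters this difference, so the overlap was partly built in.

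Single libraries far from the other 5 of their group were sought in 36 groups of values by Dixon's ratio, the gap to the nearest library divided by the range, against the 95% critical value for 6 libraries. Chance gives about 1 in 20 groups, and 12 groups passed. The summed level of the 15 genes had a ratio of 0.99 in WT_EE (replicate 6), 0.967 in TG_EE (replicate 6), 0.71 in TG_SE (replicate 1) and 0.658 in WT_MS (replicate 4). ENSRNOG00000054495 had 0.988 in WT_EE and 0.975 in TG_EE. ENSRNOG00000057855 had 0.698 in WT_SE, 0.983 in WT_EE, 0.974 in TG_EE, 0.765 in WT_MS and 0.645 in TG_MS. These 11 ratios come from the same covarying genes and are not separate observations. Those in TG_EE were fixed in advance, since the set was chosen to be at least 8 times as high in TG_EE replicate 6. The number of groups that passed can therefore not be read against the share given by chance. The remaining ratio was 0.646, for ENSRNOG00000022946 in TG_SE, where 1 library had 140.7 normalised counts against a group median of 191.2.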

How the results depend on the processing

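For WT_EE/WT_SE, 12 of 17 alternatives called 0 genes, as did the reported fit. The exceptions were 1 gene with only the 12 WT_EE and WT_SE libraries, 1 with a mean count of at least 10, 16 without a filter on low counts (9 of them among the 39 covarying genes), 17 with DESeq2 and runs (12 of the 39), and 1 with DESeq2 without covariates. Genes tested only under a looser filter could not be among the 39. Leaving out each library in turn gave 0 to 16 genes, with 16 without WT_SE replicate 1, 16 without WT_SE replicate 3 and 1 without WT_EE replicate 1, and the unadjusted p was under 0.05 in 445 to 898 genes. The cause was not tested.

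For the interaction, 8 genes were called and 5 of 17 alternatives stayed within 1.5 times that number. The count was 4 at an adjusted p of at most 0.05, 5 with only the 24 EE and SE libraries, 13 with a mean count of at least 10, 33 without a filter and 19 with DESeq2 without covariates. It was 0 with surrogate variables (6 by the permutation procedure, or 2), with 50 counts in every library, with limma-voom, without the 6 raised libraries and with the summed level of the 15 genes as covariate. The filter of 50 counts in every library removed ENSRNOG00000054495 and ENSRNOG00000057855 before testing, so that 0 says nothing of these genes. Leaving out each library in turn gave 0 to 47 genes: 47 without WT_SE replicate 1, 14 without WT_SE replicate 3, 5 without TG_EE replicate 3 or WT_SE replicate 6, 4 without WT_EE replicate 2, WT_EE replicate 5 or WT_SE replicate 5, and 0 without WT_SE replicate 2, TG_SE replicate 2, TG_SE replicate 6 or TG_EE replicate 6.

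Without the runs as replicate block and with no other covariate, edgeR called 0 genes for WT_EE/WT_SE and 0 for the interaction. DESeq2 without covariates called 1 and 19, and 1 surrogate variable in place of runs gave 0 and 12. Deviations of same-run WT_EE and WT_SE libraries correlated by 0.375, -0.025, 0.244, 0.223, -0.117 and 0.531 in runs 1 to 6, so not every run held a shared deviation, although 3814 genes (30.1%) differed between runs at an adjusted p of at most 0.1 in edgeR.

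None of the 4 log2 fold changes changed sign under any alternative. ENSRNOG00000022946 was called under none. ENSRNOG00000042971 ranged from 0.66 to 0.79, with adjusted p of 0.0332 to 1, whereas ENSRNOG00000054495 ranged from -4.61 to -0.30 and ENSRNOG00000057855 from -5.53 to -0.05, smallest with the summed level as covariate. These 3 genes were called without a filter and by DESeq2 with runs. ENSRNOG00000042971 was also called without WT_SE replicate 1 (edgeR adjusted p = 0.0886) or WT_EE replicate 1 (0.0835), and both lower genes without WT_SE replicate 1 (0.0886) or WT_SE replicate 3 (0.0595). Precision was lowest in the 3165 genes with the lowest counts, where 33.6% of the intervals lay within 0.3. The alternatives for the gene lists were not run.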
